A study of Mus musculus with 12 samples.

Results

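The 38 genes described here are interferon-stimulated genes, which were selected by symbol from the 48795 genes of a liver RNA-seq table. All 38 were found, and all 38 had enough counts to be tested, as did 13812 genes in all. They comprise 5 sensors of foreign nucleic acid, 3 transcription factors, the ISG15 modifier with its protease, 4 IFIT and 6 OAS genes, 7 further antiviral effectors, 5 other induced genes and 6 interferon-induced GTPases.

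Interferons of type I are secreted by cells that detect viral or bacterial nucleic acid. Type I interferons bind the IFNAR receptor, activate the kinases JAK1 and TYK2, and drive ISGF3, a complex that holds STAT2 and IRF9, to the interferon-stimulated response element (ISRE) of target genes. Interferon gamma acts on gamma-activated sites (GAS), and many GBP and IRG GTPases answer it. The products of these genes block viral entry, translation and release, and a low tonic expression is known in uninfected tissue, the liver included.

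The study asked how loss of neurotensin (NTS), a gut and brain peptide hormone, alters liver metabolism. Livers came from 12 female littermate mice 4 months old on normal chow, 3 in each of 4 groups: labelled Nts+/+ or Nts-/-, and fed ad libitum or fasted for 22 h. The Nts-/- mice are described as whole-body knockouts, and both genotypes were bred from Nts+/- mice. Each library held 21999647 to 45273069 counts, so 3 counts equalled 0.0663 to 0.136 CPM, which is the count scaled to the total of its library. Nts itself was counted 0 times in all 6 libraries labelled Nts+/+, and 46, 40 and 15 times in the fed and 12, 4 and 18 times in the fasted libraries labelled Nts-/-. Nts was thus counted only under the knockout label. A count per gene does not show whether the transcript was intact, so it cannot tell whether the labels are right. Groups are therefore named by their labels below.

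The sequences just upstream of the genes are shown first, because many members share a short element there. RefSeq windows on GRCm38.p6, running from 250 bases before to 50 bases after the annotated start, were matched for 30 of the 38 members (34 windows) and read on the strand of the gene. Searched on both strands, the ISRE core (GAAA, any bases NN, then GAAA) occurred in 19 of 30 members (63.3%) and in 1079 of 27025 genes with such a window (3.99%). The GAS core (TTC, any bases NNN, then GAA) occurred in 7 of 30 members (23.3%) and in 9.55% of all genes. The 34 windows held 30 ISRE matches, of which 17 began within 100 bases before the start, and an ISRE and a GAS match overlapped in 1 window. A match is a description of letters and not a measured binding site.

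The 7 windows below come from 5 of the 8 roles, with ISRE matches in capitals. Isg15, Ifit1, Oas1a, Bst2, Irgm1 and Gbp3 are shown for their matches, and Ifi47, whose fall had the smallest adjusted p of the members in both comparisons, is shown because the window holds none. Positions were Isg15 at chr4:156200769-156201068 (minus strand), Ifit1 at chr19:34640639-34640938 (plus strand), Oas1a at chr5:120907476-120907775 (minus strand), Bst2 at chr8:71537423-71537722 (minus strand), Irgm1 at chr11:48871371-48871670 (minus strand), Gbp3 at chr3:142559794-142560093 (plus strand) and Ifi47 at chr11:49076337-49076636 (plus strand).
Isg15: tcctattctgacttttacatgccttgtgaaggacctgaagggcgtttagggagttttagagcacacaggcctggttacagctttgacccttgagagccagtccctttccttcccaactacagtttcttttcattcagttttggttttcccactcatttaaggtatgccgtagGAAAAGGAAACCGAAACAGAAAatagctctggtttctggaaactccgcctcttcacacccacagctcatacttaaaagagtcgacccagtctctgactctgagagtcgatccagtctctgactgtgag
Ifit1: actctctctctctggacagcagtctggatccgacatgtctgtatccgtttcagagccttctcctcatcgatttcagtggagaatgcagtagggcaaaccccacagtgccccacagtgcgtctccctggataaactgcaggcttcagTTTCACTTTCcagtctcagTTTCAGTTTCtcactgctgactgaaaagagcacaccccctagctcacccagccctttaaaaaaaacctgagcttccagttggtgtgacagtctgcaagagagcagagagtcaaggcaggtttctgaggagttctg
Oas1a: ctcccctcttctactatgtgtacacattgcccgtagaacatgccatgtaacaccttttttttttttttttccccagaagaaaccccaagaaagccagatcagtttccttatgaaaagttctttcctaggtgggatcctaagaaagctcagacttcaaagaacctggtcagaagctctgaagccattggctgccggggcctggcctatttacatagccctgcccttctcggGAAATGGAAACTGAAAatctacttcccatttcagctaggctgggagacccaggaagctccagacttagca
Bst2: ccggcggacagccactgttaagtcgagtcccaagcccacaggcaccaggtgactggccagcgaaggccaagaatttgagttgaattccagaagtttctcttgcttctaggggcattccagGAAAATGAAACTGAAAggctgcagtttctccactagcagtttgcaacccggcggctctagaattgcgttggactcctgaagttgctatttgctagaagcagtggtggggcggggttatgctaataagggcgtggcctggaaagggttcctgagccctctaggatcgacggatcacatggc
Irgm1: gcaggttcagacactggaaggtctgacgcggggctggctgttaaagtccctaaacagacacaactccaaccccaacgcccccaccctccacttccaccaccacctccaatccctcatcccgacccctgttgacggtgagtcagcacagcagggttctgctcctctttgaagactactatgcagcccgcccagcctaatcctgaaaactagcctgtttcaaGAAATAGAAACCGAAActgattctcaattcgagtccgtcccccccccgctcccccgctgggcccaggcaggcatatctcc
Gbp3: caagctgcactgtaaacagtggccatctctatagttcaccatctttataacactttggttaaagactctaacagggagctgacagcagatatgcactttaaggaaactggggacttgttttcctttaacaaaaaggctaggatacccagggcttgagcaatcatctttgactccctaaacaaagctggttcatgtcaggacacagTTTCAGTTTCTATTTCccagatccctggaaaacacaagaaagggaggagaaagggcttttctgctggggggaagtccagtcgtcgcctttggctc
Ifi47: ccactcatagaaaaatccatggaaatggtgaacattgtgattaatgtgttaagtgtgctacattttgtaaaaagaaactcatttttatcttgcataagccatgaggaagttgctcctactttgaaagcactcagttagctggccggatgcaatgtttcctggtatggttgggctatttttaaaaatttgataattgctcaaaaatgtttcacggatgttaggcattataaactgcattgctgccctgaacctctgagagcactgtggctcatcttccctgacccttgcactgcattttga

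In Isg15 the 3 matches overlap in 1 run, and in Oas1a, Bst2, Irgm1 and Gbp3 a pair of matches overlaps likewise, so that GAAA or TTTC units repeat at the spacing of the core. In Ifit1 the pair is separated by a short spacer. By role, the core was found in 3 of 3 sensors with a window, 1 of 3 transcription factors, 3 of 4 IFIT genes and 3 of 5 OAS genes. It was also found in 1 of 1 gene of the ISG15 system, 3 of 5 further antiviral effectors, 5 of 6 GTPases and 0 of 3 of the other induced genes. Ifit2, Oasl2, Cmpk2, Samd9l, Xaf1, Ifi44, Ifi35 and Ifi47, which fell under both labels as described below, had no ISRE match in these windows.

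In all, 21 members lay in 8 groups of neighbours less than 1 Mb apart. On GRCm38 these include Ifit2, Ifit3, Ifit3b and Ifit1 at chr19:34550694-34650009, Oas2, Oas3, Oas1g and Oas1a at chr5:120730333-120907521, Gbp7, Gbp3 and Gbp2 at chr3:142530342-142638008, and Rsad2 and Cmpk2 at chr12:26442753-26479835. Some of these neighbours are near-copies whose reads the estimated counts may have divided. The longest transcripts of Oas1a and Oas1g were 97.5% identical over 1860 bases, and those of Ifit3 and Ifit3b 97.2% over 1978 bases. Values of these 4 genes are uncertain in how reads were shared.

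Expression per kilobase of the longest protein-coding transcript, the scale on which genes can be ranked, spread widely among the 37 members with such a transcript. Mx2 had no transcript annotated as protein-coding and was left out of this ranking. Bst2 led the fed livers labelled Nts+/+ with 228 ± 52.5 CPM per kb (mean ± SD, n = 3). Next stood Irgm1 (27.5 ± 2.59), Igtp (20.8 ± 5.99), Ifi47 (17.2 ± 5.001), Irf7 (15.7 ± 4.81) and Isg15 (14.8 ± 2.52 CPM per kb), neighbours that lie within their spread of each other. Mx1 was lowest at 0.220 ± 0.0706 CPM per kb.

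After the 22 h fast, interferon-stimulated genes were lower in the livers of both genotype labels. In mice labelled Nts+/+, 33 of 38 members were lower at adjusted p under 0.05 and 0 were higher, whereas 9.19% of all tested genes passed as lower and 8.91% as higher. In mice labelled Nts-/-, 29 of 38 were lower and 0 higher, against 9.14% and 7.7% of all tested genes. No member had an unadjusted p under 0.05 in the higher direction in either comparison, and DESeq2 called 34 and 31 lower and 0 higher. All 38 fold changes were below 0 under both labels. The median log2 fold change of the members was -1.29 labelled Nts+/+, a 2.44-fold lower level, and -1.01 labelled Nts-/-, a 2.02-fold lower level. The medians of all tested genes were -0.00318 and -0.0108.

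The mice of the 2 fasting comparisons are different animals. Members lower under both labels numbered 28 (73.7%), while 760 of all tested genes (5.5%) were lower under both. Irf7, Irf9, Oas1a, Oas1g and Oas2 passed only in mice labelled Nts+/+, Ddx58 only in mice labelled Nts-/-, and Eif2ak2, Usp18, Oasl1 and Mx1 in neither. None of these differences between labels passed its own test, given below. Every fasted mouse lay below every fed mouse for 35 of 38 members labelled Nts+/+ (17.9% of all tested genes) and for 30 of 38 labelled Nts-/- (18.1%).

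The counts of calls fell whichever mouse was left out, which also makes its group smaller. The median log2 fold change of the members then ranged from -1.362 to -1.135 labelled Nts+/+ and from -1.121 to -0.8178 labelled Nts-/-. Leaving out fasted mouse 282 left 20 members lower in the comparison labelled Nts+/+, and each of the other 5 mice left 23 to 29. In the comparison labelled Nts-/-, 15 remained past the threshold without fed mouse 303, 16 without fasted mouse 284 and 17 without fasted mouse 290. Without any 1 mouse, 19 members labelled Nts+/+ and 13 labelled Nts-/- still passed, and 12 did so under both labels: Zbp1, Cmpk2, Bst2, Trim30a, Xaf1, Rtp4, Parp14, Ifi47, Igtp, Gbp2, Gbp3 and Gbp7. Bulk liver RNA cannot tell fewer cells of a type apart from less RNA per cell.

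**Figure D1:**
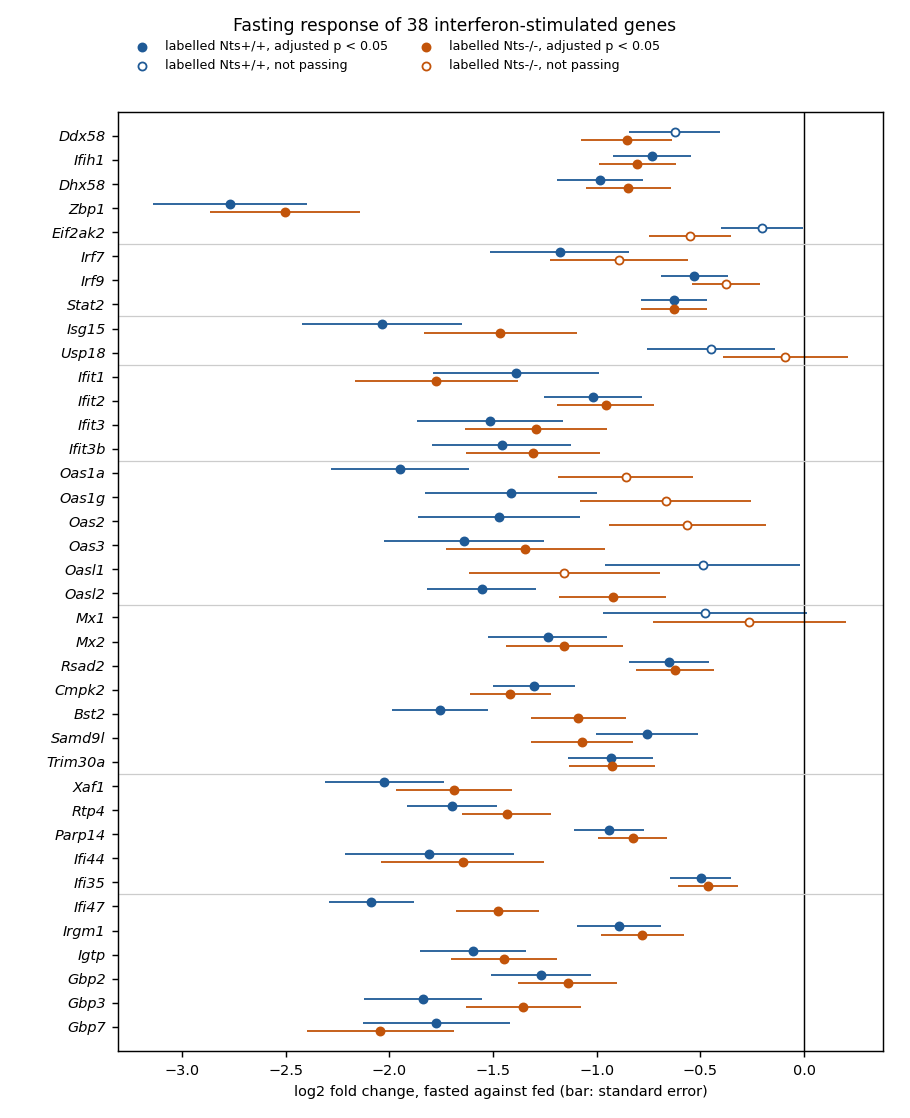
Log2 fold change of fasted against fed livers for each of the 38 genes (horizontal axis), with standard errors, in mice labelled Nts+/+ (blue) and Nts-/- (orange); filled points passed adjusted p under 0.05 and grey lines part the roles. All points of the 38 genes lie below 0, with Zbp1 farthest out under both labels.

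In the following, the 3 values of a group are in the order of mice 254, 257 and 323 (labelled Nts+/+, fed), 265, 282 and 322 (labelled Nts+/+, fasted), 277, 303 and 319 (labelled Nts-/-, fed) and 284, 290 and 295 (labelled Nts-/-, fasted). They are TMM-normalized CPM, and adjusted p values are from edgeR's quasi-likelihood test with Benjamini-Hochberg adjustment over all tested genes.

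Among the sensors, 3 of 5 fell labelled Nts+/+ and 4 of 5 labelled Nts-/-. Zbp1, a sensor of Z-form nucleic acid that triggers cell death, stood at 14, 15.01 and 12.7 CPM in the fed livers labelled Nts+/+ and at 1.898, 1.16 and 2.98 CPM in the fasted ones. Zbp1 in livers labelled Nts-/- stood at 15.5, 17.9 and 10.4 CPM fed and 1.65, 1.91 and 3.94 CPM fasted. For Zbp1, no fasted mouse reached a fed mouse under either label. Zbp1 fell by 2.77 ± 0.37 labelled Nts+/+ (log2 fold change ± SE, adjusted p = 0.000582) and by 2.50 ± 0.36 labelled Nts-/- (adjusted p = 0.000797). Ifih1, which encodes the long double-stranded RNA sensor MDA5, had 32.4, 26.6 and 29.7 CPM in fed against 20.2, 17.4 and 15.8 CPM in fasted livers labelled Nts+/+. Ifih1 values labelled Nts-/- were 38.5, 46.1 and 27.96 CPM fed and 17.1, 21 and 26.2 CPM fasted. Fed and fasted Ifih1 values stood apart under both labels. Ifih1 fell by 0.73 ± 0.19 labelled Nts+/+ (log2 fold change ± SE, adjusted p = 0.0168) and by 0.80 ± 0.19 labelled Nts-/- (adjusted p = 0.0107). Ifih1 did not pass labelled Nts+/+ without mouse 254, 282 or 322 (adjusted p = 0.0572 to 0.0694) and labelled Nts-/- without mouse 303 or 284 (adjusted p = 0.0522 to 0.05296). Dhx58, which encodes the MDA5 relative LGP2, measured 14.8, 12.3 and 11.8 CPM (fed) and 7.496, 6.35 and 5.91 CPM (fasted) labelled Nts+/+. Dhx58 measured 17.1, 17.9 and 11.4 CPM (fed) and 6.28, 9.35 and 10.1 CPM (fasted) labelled Nts-/-. Fasted Dhx58 values all lay under the fed values of the same label. Dhx58 fell by 0.98 ± 0.21 labelled Nts+/+ (log2 fold change ± SE, adjusted p = 0.00615) and by 0.85 ± 0.20 labelled Nts-/- (adjusted p = 0.0127). Dhx58 no longer passed labelled Nts-/- without mouse 277, 303 or 284 (adjusted p = 0.0528 to 0.0543). Ddx58, which encodes the RNA sensor RIG-I, stood at 31.2, 29.6 and 24.6 CPM in the fed livers labelled Nts+/+ and at 16.8, 20.1 and 18.4 CPM in the fasted ones. Ddx58 in livers labelled Nts-/- stood at 38.2, 41.7 and 22.9 CPM fed and 14.1, 18.7 and 23.8 CPM fasted. For Ddx58, the groups labelled Nts+/+ stood apart, whereas fasted mouse 295 reached the fed range labelled Nts-/-. Ddx58 fell by 0.86 ± 0.22 labelled Nts-/- (log2 fold change ± SE, adjusted p = 0.01800), and its log2 fold change labelled Nts+/+ was -0.62 ± 0.22 (adjusted p = 0.06603). Ddx58 lost its call labelled Nts-/- without mouse 277, 303, 284 or 290 (adjusted p = 0.0639 to 0.0767). Eif2ak2, the kinase PKR that halts translation on viral RNA, had 15.2, 15.4 and 12.4 CPM in fed against 13.6, 13.1 and 10.8 CPM in fasted livers labelled Nts+/+. Eif2ak2 values labelled Nts-/- were 17.9, 21.4 and 11.6 CPM fed and 9.76, 12.9 and 12.2 CPM fasted. Fasted mice 265 and 282 reached the fed range labelled Nts+/+, and fasted mice 290 and 295 did so labelled Nts-/-. It passed under neither label, with log2 fold changes of -0.20 ± 0.20 (adjusted p = 0.5203) labelled Nts+/+ and -0.55 ± 0.20 (adjusted p = 0.0741) labelled Nts-/-.

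The 3 transcription factors all fell in mice labelled Nts+/+ and 1 of 3, Stat2, fell in mice labelled Nts-/-. Stat2, a subunit of ISGF3, measured 39.8, 49.4 and 33.5 CPM (fed) and 23.01, 28.6 and 27.7 CPM (fasted) labelled Nts+/+. Stat2 measured 43.04, 46.4 and 37.3 CPM (fed) and 27.6, 31.4 and 23.3 CPM (fasted) labelled Nts-/-. Fasted Stat2 values all lay under the fed values of the same label. Stat2 fell by 0.63 ± 0.16 labelled Nts+/+ (log2 fold change ± SE, adjusted p = 0.0156) and by 0.63 ± 0.16 labelled Nts-/- (adjusted p = 0.0163). Stat2 no longer passed labelled Nts+/+ without mouse 257 or 265 (adjusted p = 0.0611 to 0.0742) and labelled Nts-/- without mouse 277, 303 or 295 (adjusted p = 0.0508 to 0.07100). Irf9, the DNA-binding subunit of ISGF3, stood at 35.01, 35.9 and 30.1 CPM in the fed livers labelled Nts+/+ and at 20.5, 25.4 and 24.1 CPM in the fasted ones. Irf9 in livers labelled Nts-/- stood at 35.1, 41.2 and 34.5 CPM fed and 22.2, 26.9 and 36.1 CPM fasted. For Irf9, the groups labelled Nts+/+ stood apart, whereas fasted mouse 295 reached the fed range labelled Nts-/-. Irf9 fell by 0.53 ± 0.16 labelled Nts+/+ (log2 fold change ± SE, adjusted p = 0.0381), and its log2 fold change labelled Nts-/- was -0.38 ± 0.16 (adjusted p = 0.128). Irf9 lost its call labelled Nts+/+ without mouse 254, 257, 265, 282 or 322 (adjusted p = 0.0697 to 0.132). Irf7, which drives the interferon alpha genes, had 40.4, 47.6 and 25 CPM in fed against 19.3, 9.75 and 20.9 CPM in fasted livers labelled Nts+/+. Irf7 values labelled Nts-/- were 32.6, 36.99 and 22.5 CPM fed and 11.5, 19.3 and 18.7 CPM fasted. Fed and fasted Irf7 values stood apart under both labels. Irf7 fell by 1.18 ± 0.33 labelled Nts+/+ (log2 fold change ± SE, adjusted p = 0.03400), and its log2 fold change labelled Nts-/- was -0.89 ± 0.33 (adjusted p = 0.0925). Irf7 did not pass labelled Nts+/+ without mouse 254, 257, 265 or 282 (adjusted p = 0.0594 to 0.113).

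The ubiquitin-like modifier and its protease differed in whether they passed. Isg15, the modifier conjugated to newly made proteins, measured 11.8, 13.4 and 9.44 CPM (fed) and 3.89, 1.52 and 3.12 CPM (fasted) labelled Nts+/+. Isg15 measured 10.8, 17.8 and 11.7 CPM (fed) and 3.16, 3.59 and 7.56 CPM (fasted) labelled Nts-/-. Fasted Isg15 values all lay under the fed values of the same label. Isg15 fell by 2.04 ± 0.39 labelled Nts+/+ (log2 fold change ± SE, adjusted p = 0.00469) and by 1.46 ± 0.37 labelled Nts-/- (adjusted p = 0.0195). Isg15 no longer passed labelled Nts-/- without mouse 303, 284 or 290 (adjusted p = 0.0699 to 0.0775). Usp18, which removes ISG15 and restrains IFNAR signalling, stood at 9.42, 9.82 and 8.16 CPM in the fed livers labelled Nts+/+ and at 6.31, 8.098 and 5.67 CPM in the fasted ones. Usp18 in livers labelled Nts-/- stood at 10.5, 18.5 and 8.66 CPM fed and 7.51, 10.9 and 16.6 CPM fasted. For Usp18, the groups labelled Nts+/+ stood apart, whereas fasted mice 290 and 295 reached the fed range labelled Nts-/-. It passed under neither label, with log2 fold changes of -0.45 ± 0.31 (adjusted p = 0.344) labelled Nts+/+ and -0.09 ± 0.30 (adjusted p = 0.876) labelled Nts-/-. Usp18 in mouse 295 (16.6 CPM) was the highest value of the fasted livers and close to the highest fed one (18.5 CPM in mouse 303).

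All 4 IFIT genes, whose products bind viral RNA, fell under both labels. Ifit1 had 11.7, 11.1 and 14.4 CPM in fed against 4.32, 5.78 and 4.09 CPM in fasted livers labelled Nts+/+. Ifit1 values labelled Nts-/- were 21.2, 34.1 and 14.9 CPM fed and 4.08, 4.68 and 11.4 CPM fasted. Fed and fasted Ifit1 values stood apart under both labels. Ifit1 fell by 1.39 ± 0.40 labelled Nts+/+ (log2 fold change ± SE, adjusted p = 0.03605) and by 1.77 ± 0.39 labelled Nts-/- (adjusted p = 0.0119). Ifit1 did not pass labelled Nts+/+ without mouse 254, 257, 323, 265, 282 or 322 (adjusted p = 0.0712 to 0.106) and labelled Nts-/- without mouse 290 (adjusted p = 0.0509). Ifit2 measured 4.62, 4.78 and 4.08 CPM (fed) and 2.61, 1.82 and 2.25 CPM (fasted) labelled Nts+/+. Ifit2 measured 5.48, 5.32 and 3.505 CPM (fed) and 2.34, 1.91 and 3.07 CPM (fasted) labelled Nts-/-. Fasted Ifit2 values all lay under the fed values of the same label. Ifit2 fell by 1.02 ± 0.24 labelled Nts+/+ (log2 fold change ± SE, adjusted p = 0.01003) and by 0.96 ± 0.23 labelled Nts-/- (adjusted p = 0.0135). Ifit2 no longer passed labelled Nts+/+ without mouse 282 (adjusted p = 0.0532) and labelled Nts-/- without mouse 277, 303, 284 or 290 (adjusted p = 0.05003 to 0.0641). Ifit3 stood at 18.9, 19.4 and 15.4 CPM in the fed livers labelled Nts+/+ and at 9.06, 5.12 and 4.800 CPM in the fasted ones. Ifit3 in livers labelled Nts-/- stood at 18.3, 33.6 and 14.9 CPM fed and 6.69, 7.84 and 12.5 CPM fasted. For Ifit3, no fasted mouse reached a fed mouse under either label. Ifit3 fell by 1.51 ± 0.35 labelled Nts+/+ (log2 fold change ± SE, adjusted p = 0.0131) and by 1.29 ± 0.34 labelled Nts-/- (adjusted p = 0.0252). Ifit3 lost its call labelled Nts+/+ without mouse 282 (adjusted p = 0.0654) and labelled Nts-/- without mouse 303, 284 or 290 (adjusted p = 0.0815 to 0.0935). Ifit3b, the near-copy of Ifit3, had 4.25, 5.08 and 4.39 CPM in fed against 2.28, 1.69 and 1.11 CPM in fasted livers labelled Nts+/+. Ifit3b values labelled Nts-/- were 4.21, 9.12 and 5.32 CPM fed and 2.06, 1.91 and 3.42 CPM fasted. Fed and fasted Ifit3b values stood apart under both labels. Ifit3b fell by 1.46 ± 0.33 labelled Nts+/+ (log2 fold change ± SE, adjusted p = 0.00942) and by 1.31 ± 0.32 labelled Nts-/- (adjusted p = 0.0139). Ifit3b did not pass labelled Nts-/- without mouse 303, 284 or 290 (adjusted p = 0.0613 to 0.0752).

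Of the 6 OAS genes, whose enzymes make the oligoadenylates that activate RNase L or are relatives of them, 5 fell labelled Nts+/+ and 2 labelled Nts-/-. Oas1a measured 7.76, 6.99 and 4.74 CPM (fed) and 1.52, 0.892 and 2.58 CPM (fasted) labelled Nts+/+. Oas1a measured 3.73, 5.29 and 3.22 CPM (fed) and 1.83, 2.47 and 2.41 CPM (fasted) labelled Nts-/-. Fasted Oas1a values all lay under the fed values of the same label. Oas1a fell by 1.95 ± 0.33 labelled Nts+/+ (log2 fold change ± SE, adjusted p = 0.00174), and its log2 fold change labelled Nts-/- was -0.86 ± 0.33 (adjusted p = 0.0874). Oas1g, the near-copy of Oas1a, stood at 1.85, 1.62 and 1.37 CPM in the fed livers labelled Nts+/+ and at 0.617, 0.397 and 0.786 CPM in the fasted ones. Oas1g in livers labelled Nts-/- stood at 1.14, 1.12 and 1.09 CPM fed and 0.229, 1.13 and 0.732 CPM fasted. For Oas1g, the groups labelled Nts+/+ stood apart, whereas fasted mouse 290 reached the fed range labelled Nts-/-. Oas1g fell by 1.41 ± 0.41 labelled Nts+/+ (log2 fold change ± SE, adjusted p = 0.0309), and its log2 fold change labelled Nts-/- was -0.67 ± 0.41 (adjusted p = 0.296). Oas1g lost its call labelled Nts+/+ without mouse 254, 257, 265 or 282 (adjusted p = 0.0669 to 0.125). Oas2 had 2.99, 2.24 and 1.11 CPM in fed against 1.09, 0.628 and 0.624 CPM in fasted livers labelled Nts+/+. Oas2 values labelled Nts-/- were 1.82, 1.77 and 1.57 CPM fed and 1.05, 1.73 and 0.779 CPM fasted. For Oas2, the groups labelled Nts+/+ stood apart, whereas fasted mouse 290 reached the fed range labelled Nts-/-. Oas2 fell by 1.47 ± 0.39 labelled Nts+/+ (log2 fold change ± SE, adjusted p = 0.0198), and its log2 fold change labelled Nts-/- was -0.56 ± 0.38 (adjusted p = 0.339). Oas2 did not pass labelled Nts+/+ without mouse 254, 257, 282 or 322 (adjusted p = 0.0562 to 0.101). Oas3 measured 2.29, 2.87 and 2.08 CPM (fed) and 0.949, 0.463 and 0.922 CPM (fasted) labelled Nts+/+. Oas3 measured 2.35, 2.57 and 1.25 CPM (fed) and 0.412, 0.779 and 1.16 CPM (fasted) labelled Nts-/-. Fasted Oas3 values all lay under the fed values of the same label. Oas3 fell by 1.64 ± 0.39 labelled Nts+/+ (log2 fold change ± SE, adjusted p = 0.01099) and by 1.34 ± 0.38 labelled Nts-/- (adjusted p = 0.0282). Oas3 no longer passed labelled Nts+/+ without mouse 282 (adjusted p = 0.05501) and labelled Nts-/- without mouse 277, 303, 284 or 290 (adjusted p = 0.08199 to 0.0984). Oasl2, an OAS-like gene, stood at 6.02, 6.59 and 3.77 CPM in the fed livers labelled Nts+/+ and at 1.57, 1.69 and 2.28 CPM in the fasted ones. Oasl2 in livers labelled Nts-/- stood at 4.52, 5.86 and 3.38 CPM fed and 2.199, 2.68 and 2.39 CPM fasted. For Oasl2, no fasted mouse reached a fed mouse under either label. Oasl2 fell by 1.56 ± 0.26 labelled Nts+/+ (log2 fold change ± SE, adjusted p = 0.001597) and by 0.92 ± 0.26 labelled Nts-/- (adjusted p = 0.0259). Oasl2 lost its call labelled Nts-/- without mouse 277, 303, 284, 290 or 295 (adjusted p = 0.0556 to 0.113). Oasl1, an OAS-like gene that restrains Irf7 translation, had 5.95, 7.505 and 3.901 CPM in fed against 6.45, 2.25 and 3.85 CPM in fasted livers labelled Nts+/+. Oasl1 values labelled Nts-/- were 11.1, 15.4 and 7.57 CPM fed and 2.84, 8.400 and 4.11 CPM fasted. Fasted mouse 265 reached the fed range labelled Nts+/+, and fasted mouse 290 did so labelled Nts-/-. It passed under neither label, with log2 fold changes of -0.49 ± 0.47 (adjusted p = 0.512) labelled Nts+/+ and -1.16 ± 0.46 (adjusted p = 0.111) labelled Nts-/-.

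Of the 7 MX, viperin and other antiviral effector genes, 6 fell under each label. Bst2 (tetherin), which holds budding virus at the cell surface, measured 219.8, 248 and 155 CPM (fed) and 73.5, 42.8 and 68.1 CPM (fasted) labelled Nts+/+. Bst2 measured 108, 126 and 156 CPM (fed) and 62.99, 50.2 and 69.8 CPM (fasted) labelled Nts-/-. Fasted Bst2 values all lay under the fed values of the same label. Bst2 fell by 1.75 ± 0.23 labelled Nts+/+ (log2 fold change ± SE, adjusted p = 0.000416) and by 1.09 ± 0.23 labelled Nts-/- (adjusted p = 0.00641). Cmpk2, a mitochondrial nucleotide kinase, stood at 8.38, 10.3 and 9.58 CPM in the fed livers labelled Nts+/+ and at 4.08, 3.404 and 3.96 CPM in the fasted ones. Cmpk2 in livers labelled Nts-/- stood at 12.99, 13.3 and 11.1 CPM fed and 4.31, 3.42 and 6.14 CPM fasted. For Cmpk2, no fasted mouse reached a fed mouse under either label. Cmpk2 fell by 1.303 ± 0.20 labelled Nts+/+ (log2 fold change ± SE, adjusted p = 0.000829) and by 1.42 ± 0.20 labelled Nts-/- (adjusted p = 0.000353). Rsad2 (viperin), its genomic neighbour that blocks viral replication, had 10.8, 9.64 and 11.5 CPM in fed against 7.16, 7.44 and 5.72 CPM in fasted livers labelled Nts+/+. Rsad2 values labelled Nts-/- were 14.4, 19 and 17.1 CPM fed and 8.89, 9.44 and 14.3 CPM fasted. Fed and fasted Rsad2 values stood apart under both labels. Rsad2 fell by 0.65 ± 0.19 labelled Nts+/+ (log2 fold change ± SE, adjusted p = 0.0309) and by 0.62 ± 0.19 labelled Nts-/- (adjusted p = 0.0352). Rsad2 did not pass labelled Nts+/+ without mouse 254, 323, 265, 282 or 322 (adjusted p = 0.0605 to 0.104) and labelled Nts-/- without mouse 303, 319, 284 or 290 (adjusted p = 0.06103 to 0.141). Mx2, a dynamin-like GTPase, measured 5.06, 3.83 and 2.84 CPM (fed) and 2.28, 1.42 and 1.36 CPM (fasted) labelled Nts+/+. Mx2 measured 3.97, 4.42 and 4.11 CPM (fed) and 2.06, 1.21 and 2.27 CPM (fasted) labelled Nts-/-. Fasted Mx2 values all lay under the fed values of the same label. Mx2 fell by 1.24 ± 0.29 labelled Nts+/+ (log2 fold change ± SE, adjusted p = 0.00992) and by 1.16 ± 0.28 labelled Nts-/- (adjusted p = 0.0133). Mx2 no longer passed labelled Nts+/+ without mouse 254 or 282 (adjusted p = 0.0521 to 0.0573) and labelled Nts-/- without mouse 290 (adjusted p = 0.0575). Mx1, the related GTPase that blocks influenza virus, stood at 0.813, 0.478 and 0.488 CPM in the fed livers labelled Nts+/+ and at 0.712, 0.264 and 0.352 CPM in the fasted ones. Mx1 in livers labelled Nts-/- stood at 0.3704, 1.12 and 0.685 CPM fed and 0.412, 0.693 and 0.661 CPM fasted. Fasted mouse 265 reached the fed range labelled Nts+/+, and fasted mice 284, 290 and 295 did so labelled Nts-/-. It passed under neither label, with log2 fold changes of -0.48 ± 0.49 (adjusted p = 0.543) labelled Nts+/+ and -0.26 ± 0.47 (adjusted p = 0.744) labelled Nts-/-. Samd9l, an inhibitor of translation and viral growth, had 19.1, 15.97 and 18 CPM in fed against 12.2, 10.8 and 8.49 CPM in fasted livers labelled Nts+/+. Samd9l values labelled Nts-/- were 22.6, 29.5 and 13.01 CPM fed and 8.52, 10.4 and 12 CPM fasted. Fed and fasted Samd9l values stood apart under both labels. Samd9l fell by 0.76 ± 0.25 labelled Nts+/+ (log2 fold change ± SE, adjusted p = 0.04899) and by 1.07 ± 0.25 labelled Nts-/- (adjusted p = 0.0105). Samd9l did not pass labelled Nts+/+ without mouse 254, 257, 323, 265, 282 or 322 (adjusted p = 0.06299 to 0.145). Trim30a, a TRIM family protein, measured 10.1, 8.02 and 8.42 CPM (fed) and 3.701, 5.12 and 5.02 CPM (fasted) labelled Nts+/+. Trim30a measured 9.52, 12.2 and 6.81 CPM (fed) and 4.86, 4.89 and 5.24 CPM (fasted) labelled Nts-/-. Fasted Trim30a values all lay under the fed values of the same label. Trim30a fell by 0.93 ± 0.21 labelled Nts+/+ (log2 fold change ± SE, adjusted p = 0.00795) and by 0.93 ± 0.21 labelled Nts-/- (adjusted p = 0.008200).

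**Figure D2:**
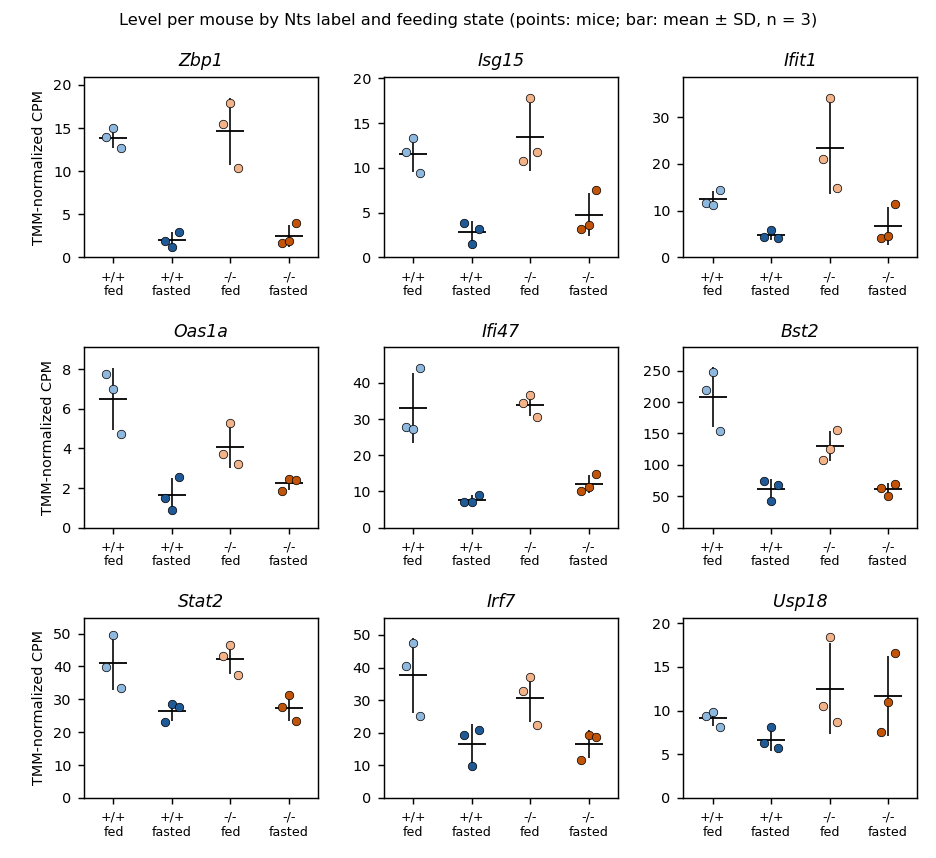
TMM-normalized CPM (vertical axes, from 0) of 9 genes in each mouse (points), with group mean and SD (bars, n = 3), by Nts label and feeding state. Zbp1 shows no overlap of fed and fasted mice under either label, whereas the Usp18 points of fasted and fed livers labelled Nts-/- overlap.

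All 5 other induced genes fell under both labels. Xaf1, which promotes apoptosis, stood at 9.09, 5.55 and 5.098 CPM in the fed livers labelled Nts+/+ and at 1.38, 2.05 and 1.41 CPM in the fasted ones. Xaf1 in livers labelled Nts-/- stood at 7.28, 8.76 and 5.92 CPM fed and 1.695, 2.04 and 2.98 CPM fasted. For Xaf1, no fasted mouse reached a fed mouse under either label. Xaf1 fell by 2.02 ± 0.29 labelled Nts+/+ (log2 fold change ± SE, adjusted p = 0.000532) and by 1.69 ± 0.28 labelled Nts-/- (adjusted p = 0.00127). Rtp4, a receptor chaperone, had 17.8, 17.5 and 16.8 CPM in fed against 4.37, 5.52 and 6.07 CPM in fasted livers labelled Nts+/+. Rtp4 values labelled Nts-/- were 17.9, 24.9 and 15.8 CPM fed and 5.36, 6.67 and 9.52 CPM fasted. Fed and fasted Rtp4 values stood apart under both labels. Rtp4 fell by 1.70 ± 0.22 labelled Nts+/+ (log2 fold change ± SE, adjusted p = 0.000292) and by 1.43 ± 0.21 labelled Nts-/- (adjusted p = 0.000633). Parp14, an ADP-ribosyltransferase, measured 37.2, 35.3 and 33.6 CPM (fed) and 18.1, 20.3 and 16.9 CPM (fasted) labelled Nts+/+. Parp14 measured 43.8, 44.02 and 26.5 CPM (fed) and 19.6, 22.6 and 22.3 CPM (fasted) labelled Nts-/-. Fasted Parp14 values all lay under the fed values of the same label. Parp14 fell by 0.94 ± 0.17 labelled Nts+/+ (log2 fold change ± SE, adjusted p = 0.002400) and by 0.83 ± 0.17 labelled Nts-/- (adjusted p = 0.00497). Ifi44 stood at 5.06, 4.67 and 3.28 CPM in the fed livers labelled Nts+/+ and at 1.09, 1.19 and 1.41 CPM in the fasted ones. Ifi44 in livers labelled Nts-/- stood at 4.05, 9.701 and 3.83 CPM fed and 1.19, 1.39 and 2.86 CPM fasted. For Ifi44, no fasted mouse reached a fed mouse under either label. Ifi44 fell by 1.81 ± 0.41 labelled Nts+/+ (log2 fold change ± SE, adjusted p = 0.00969) and by 1.65 ± 0.39 labelled Nts-/- (adjusted p = 0.01297). Ifi44 lost its call labelled Nts-/- without mouse 303, 284 or 290 (adjusted p = 0.05400 to 0.0595). Ifi35 had 22.5, 22.1 and 22.03 CPM in fed against 15.8, 13.5 and 17.8 CPM in fasted livers labelled Nts+/+. Ifi35 values labelled Nts-/- were 20.2, 22.8 and 23.2 CPM fed and 13.4, 15.2 and 19.4 CPM fasted. Fed and fasted Ifi35 values stood apart under both labels. Ifi35 fell by 0.50 ± 0.15 labelled Nts+/+ (log2 fold change ± SE, adjusted p = 0.0303) and by 0.46 ± 0.15 labelled Nts-/- (adjusted p = 0.0431). Ifi35 did not pass labelled Nts+/+ without mouse 254, 257, 323, 265 or 282 (adjusted p = 0.0558 to 0.143) and labelled Nts-/- without mouse 277, 303, 319, 284 or 290 (adjusted p = 0.0666 to 0.176).

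All 6 interferon-induced GTPases, which act on membranes around intracellular pathogens, fell under both labels. Ifi47, an IRG GTPase, measured 27.9, 27.2 and 44.2 CPM (fed) and 7.12, 7.04 and 9.11 CPM (fasted) labelled Nts+/+. Ifi47 measured 34.3, 36.7 and 30.6 CPM (fed) and 10.2, 11.3 and 14.8 CPM (fasted) labelled Nts-/-. Fasted Ifi47 values all lay under the fed values of the same label. Ifi47 fell by 2.09 ± 0.20 labelled Nts+/+ (log2 fold change ± SE, adjusted p = 5.65e-05) and by 1.48 ± 0.20 labelled Nts-/- (adjusted p = 0.000294). Igtp, an IRG GTPase, stood at 55.6, 99.7 and 74.7 CPM in the fed livers labelled Nts+/+ and at 22.5, 20.5 and 33.1 CPM in the fasted ones. Igtp in livers labelled Nts-/- stood at 66.5, 94.5 and 58.4 CPM fed and 22.4, 26.6 and 31.4 CPM fasted. For Igtp, no fasted mouse reached a fed mouse under either label. Igtp fell by 1.60 ± 0.26 labelled Nts+/+ (log2 fold change ± SE, adjusted p = 0.00155) and by 1.45 ± 0.25 labelled Nts-/- (adjusted p = 0.00262). Irgm1, an IRG GTPase that regulates the others, had 66.9, 80.7 and 72.5 CPM in fed against 44.2, 39.9 and 34.6 CPM in fasted livers labelled Nts+/+. Irgm1 values labelled Nts-/- were 66.5, 99.8 and 54.4 CPM fed and 40.4, 36.1 and 51.9 CPM fasted. Fed and fasted Irgm1 values stood apart under both labels. Irgm1 fell by 0.89 ± 0.20 labelled Nts+/+ (log2 fold change ± SE, adjusted p = 0.00929) and by 0.78 ± 0.20 labelled Nts-/- (adjusted p = 0.0184). Irgm1 did not pass labelled Nts-/- without mouse 303, 284 or 290 (adjusted p = 0.0716 to 0.0892). Gbp7, a guanylate-binding protein, measured 18.2, 19.6 and 23.4 CPM (fed) and 4.51, 5.09 and 8.13 CPM (fasted) labelled Nts+/+. Gbp7 measured 37.5, 35.9 and 13.5 CPM (fed) and 5.77, 7.92 and 7.37 CPM (fasted) labelled Nts-/-. Fasted Gbp7 values all lay under the fed values of the same label. Gbp7 fell by 1.77 ± 0.35 labelled Nts+/+ (log2 fold change ± SE, adjusted p = 0.00676) and by 2.04 ± 0.35 labelled Nts-/- (adjusted p = 0.00308). Gbp3 stood at 15.6, 13.3 and 13.1 CPM in the fed livers labelled Nts+/+ and at 4.41, 3.04 and 4.31 CPM in the fasted ones. Gbp3 in livers labelled Nts-/- stood at 12.4, 21.6 and 8.82 CPM fed and 4.902, 5.02 and 6.71 CPM fasted. For Gbp3, no fasted mouse reached a fed mouse under either label. Gbp3 fell by 1.84 ± 0.28 labelled Nts+/+ (log2 fold change ± SE, adjusted p = 0.00104) and by 1.35 ± 0.28 labelled Nts-/- (adjusted p = 0.00565). Gbp2 had 13.2, 9.79 and 10.1 CPM in fed against 3.94, 3.14 and 6.54 CPM in fasted livers labelled Nts+/+. Gbp2 values labelled Nts-/- were 9.39, 11.6 and 9.99 CPM fed and 4.26, 4.16 and 5.55 CPM fasted. Fed and fasted Gbp2 values stood apart under both labels. Gbp2 fell by 1.27 ± 0.24 labelled Nts+/+ (log2 fold change ± SE, adjusted p = 0.00329) and by 1.14 ± 0.24 labelled Nts-/- (adjusted p = 0.00611).

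**Figure D3:**
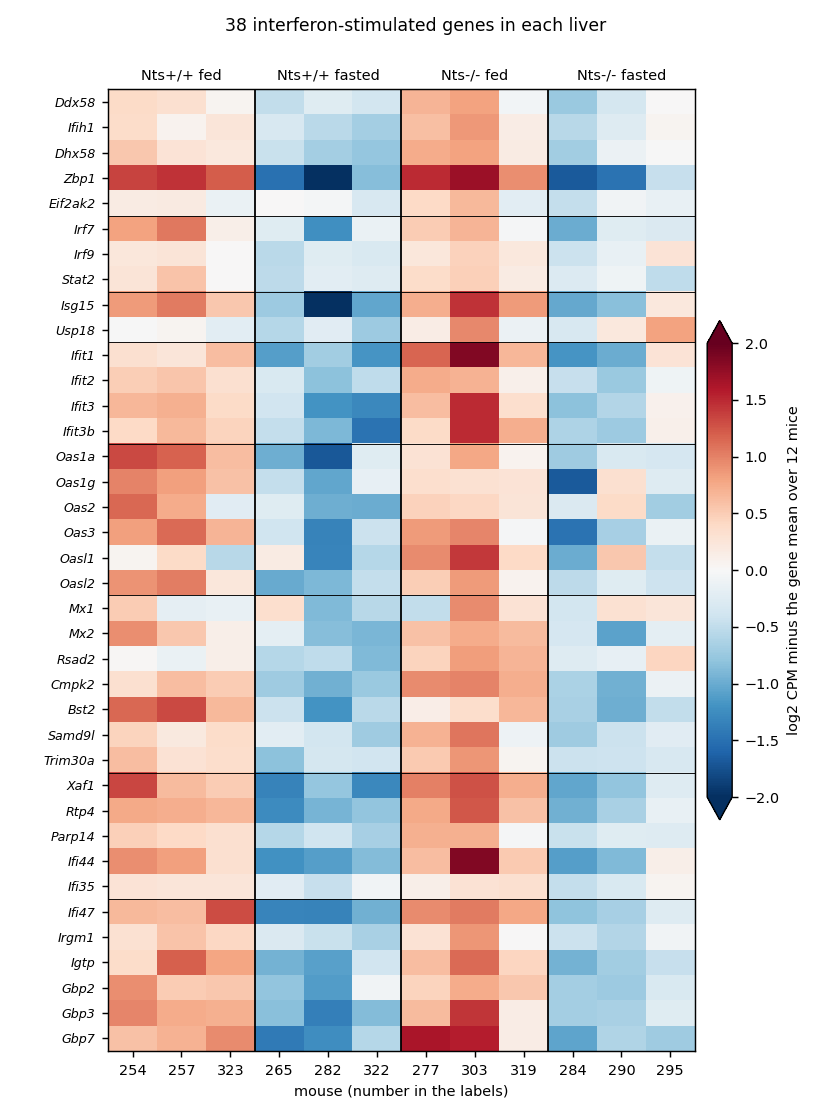
Log2 CPM of each of the 38 genes (rows, parted by role) in each of the 12 mice (columns, by number), minus the gene's mean over the 12 mice; red is above and blue below that mean, and the colour scale ends at 2 in either direction. Fed columns are mostly red and fasted columns mostly blue under both labels, with mouse 303 the deepest red for many genes and mouse 295 the palest fasted column.

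Some mice stood high or low in their group over most members. Averaged over the 38 genes after centring each on its mean log2 CPM, the fed mice labelled Nts+/+ stood at 0.62 (mouse 254), 0.59 (257) and 0.37 (323), and the fasted ones at -0.61 (265), -0.89 (282) and -0.65 (322). Labelled Nts-/-, the fed mice stood at 0.60 (277), 0.98 (303) and 0.32 (319), and the fasted ones at -0.74 (284), -0.45 (290) and -0.14 (295). All 6 fed averages were above all 6 fasted ones. In the fed group labelled Nts-/-, mouse 303 had the highest value for 32 of 38 members and mouse 319 the lowest for 30. In the fasted group with that label, mouse 295 had the highest for 27 and mouse 284 the lowest for 29. The groups labelled Nts+/+ were more mixed. In the fasted one, mice 265, 282 and 322 had the highest value for 17, 9 and 12 members and the lowest for 9, 16 and 13. In the fed one, mice 254 and 257 each had the highest for 17, and mouse 323 had the lowest for 25.

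**Figure D4:**
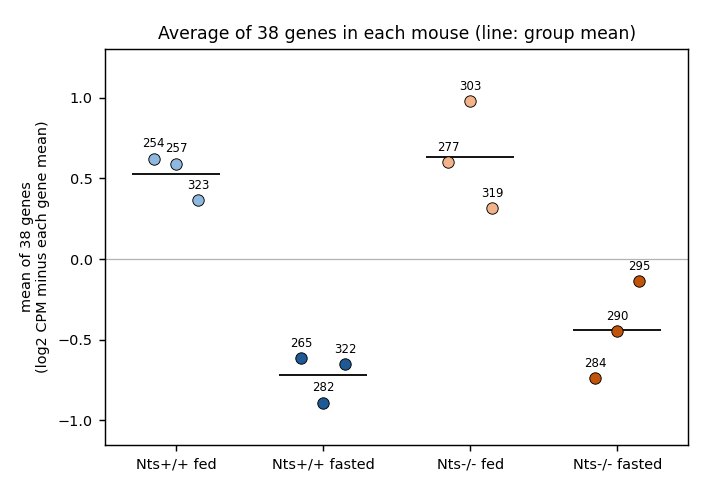
Mean over the 38 genes of log2 CPM minus each gene's mean over the 12 mice (vertical axis), for each mouse (points, with mouse number) by group, with the group mean as a line. The fed mice lie between 0.32 and 0.98 and the fasted mice between -0.89 and -0.14.

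Between the genotype labels, no member passed. Livers labelled Nts-/- against Nts+/+ gave 0 of 38 members and 0% of all tested genes by edgeR in fed mice, 0 of 38 and 0% in fasted mice, and 0 of 38 and 0% for the difference of the fasting responses. DESeq2 called 0 members in each. At an unadjusted p under 0.05 there were 4 members fed (6.34% of all tested genes), 3 fasted (4.96%) and 2 for the difference (4.8%). The median log2 fold change of the members was 0.12 fed and 0.29 fasted, against 0.0103 and -0.00871 for all tested genes. Fold changes were above 0 for 28 of 38 members fed and 34 of 38 fasted. Among all 13812 tested genes, 7160 were above 0 fed and 6676 fasted. Without mouse 303 the fed median of the members was -0.03, with 16 of 38 not below 0. Without mouse 295 the fasted median was 0.13, with 24 of 38 not below 0.

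Rsad2 was the member with the smallest unadjusted p in both feeding states. Its values, given above, were higher in every mouse labelled Nts-/- than in every mouse labelled Nts+/+ when fed and again when fasted, with log2 fold changes of 0.66 ± 0.19 (SE, adjusted p = 0.715) and 0.69 ± 0.19 (SE, adjusted p = 0.917), so it did not pass over all tested genes. The other members nearest to passing in fed livers were Bst2, at -0.68 ± 0.23 (SE, adjusted p = 0.734), and Ifit1, at 0.91 ± 0.38 (SE, adjusted p = 0.765). In fasted livers they were Ifi47, at 0.64 ± 0.20 (SE, adjusted p = 0.917), and Usp18, at 0.81 ± 0.31 (SE, adjusted p = 0.917). Every fed mouse labelled Nts-/- was above every fed mouse labelled Nts+/+ for 4 members, namely Ifit1, Oasl1, Rsad2 and Cmpk2 (4.81% of all tested genes), and below for 1, Oas1g (5.85%). In fasted mice the counts were 3 above, namely Rsad2, Ifi47 and Gbp3 (5.29%), and 0 below (6.88%).

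The log2 response to fasting was higher, which for these genes is a smaller fall, labelled Nts-/- for 30 of 38 members and for 47.1% of all tested genes. The median difference of the members was 0.15 on the log2 scale. Without fasted mouse 295 the count was 17 of 38 and the median -0.04, and without fed mouse 303 the median was 0.40. The 3 smallest p values belonged to Oas1a, with a difference of 1.09 ± 0.46 (SE, adjusted p = 0.897), Ifi47, with 0.61 ± 0.28 (SE, adjusted p = 0.897), and Bst2, with 0.66 ± 0.32 (SE, adjusted p = 0.897).

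Upstream of the members, interferon transcripts were scarcely counted. Of 21 interferon ligand genes, 17 had no count in any mouse, which allows up to 3 counts per library, and the 21 counts on the rest were among 342262521 counts over 12 mice. Ifng had 13 counts, at most 5 in 1 mouse, and Ifnb1 had 1, and none of the 21 could be tested. The receptors did not pass: 0 of the 5 tested receptor genes were lower or higher by edgeR under either label, with 0 and 1 at an unadjusted p under 0.05. By the same test 18.1% and 16.8% of all tested genes passed in either direction. An unadjusted p under 0.05 was reached by 4489 and 4383 of 13812. Ifnar1 had log2 fold changes of 0.24 ± 0.11 (adjusted p = 0.158) labelled Nts+/+ and -0.01 ± 0.11 (adjusted p = 0.966) labelled Nts-/-, and Ifnar2 of 0.16 ± 0.12 (adjusted p = 0.389) and 0.34 ± 0.12 (adjusted p = 0.0656).

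Between receptor and target genes, 4 of 18 JAK-STAT and IRF genes (22.2%) fell under each label, Irf5, Irf1 and Tyk2 among them. The share of all tested genes that fell was 9.19% labelled Nts+/+ and 9.14% labelled Nts-/-. Fold changes were below 0 for 13 of these 18 genes labelled Nts+/+ and for 11 labelled Nts-/-. Irf1, a factor induced by interferon gamma, had 37.6, 36.2 and 34.1 CPM fed and 19.9, 11.4 and 14.3 CPM fasted labelled Nts+/+, and 30.9, 29.8 and 30.8 CPM fed and 21.8, 16.1 and 16.7 CPM fasted labelled Nts-/-. It fell by 1.25 ± 0.18 (adjusted p = 0.00051) and by 0.75 ± 0.17 (adjusted p = 0.0104). Irf5 fell by 1.65 ± 0.18 (adjusted p = 0.000117) and by 1.89 ± 0.18 (adjusted p = 3.11e-05), and Tyk2, the receptor-bound kinase, by 0.61 ± 0.12 (adjusted p = 0.00441) and by 0.75 ± 0.12 (adjusted p = 0.00116). Ptpn11, a phosphatase, rose by 0.50 ± 0.12 labelled Nts+/+ (adjusted p = 0.0129) and had 0.25 ± 0.12 labelled Nts-/- (adjusted p = 0.174).

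Among 18 genes of nucleic acid sensing upstream of interferon, 2 fell (11.1%) and 1 rose under each label. Of all tested genes, 9.19% were lower and 8.91% higher labelled Nts+/+, and 9.14% and 7.7% labelled Nts-/-. The share of this list that fell was near that of all tested genes. Unc93b1, which escorts endosomal Toll-like receptors, fell by 0.69 ± 0.17 (adjusted p = 0.0139) labelled Nts+/+ and by 0.55 ± 0.17 (adjusted p = 0.0397) labelled Nts-/-. Mb21d1, which encodes the DNA sensor cGAS, fell by 1.56 ± 0.43 (adjusted p = 0.0237) labelled Nts+/+, and Tlr3 fell by 0.86 ± 0.22 (adjusted p = 0.0182) labelled Nts-/-. Ticam1, the adaptor of Tlr3, rose by 0.73 ± 0.14 (adjusted p = 0.00382) and by 0.46 ± 0.14 (adjusted p = 0.0406).

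Many interferon-induced genes that are not members were also lower after fasting. Of 55 tested, 41 were lower and 0 higher labelled Nts+/+, with a median log2 fold change of -1.06. Labelled Nts-/-, 26 were lower and 1, Tor3a, higher, with a median of -0.73. The shares of all tested genes were 9.19% lower and 8.91% higher labelled Nts+/+, and 9.14% and 7.7% labelled Nts-/-. Gbp6 fell by 2.73 ± 0.28 (adjusted p = 0.000145) and by 2.38 ± 0.28 (adjusted p = 0.000196). Apol9b fell by 2.21 ± 0.23 (adjusted p = 0.000124) and by 1.77 ± 0.23 (adjusted p = 0.000269), and Uba7, the enzyme that activates ISG15, by 1.89 ± 0.23 (adjusted p = 0.000217) and by 1.71 ± 0.23 (adjusted p = 0.000269). Of 19 class I presentation and immunoproteasome genes, 11 fell labelled Nts+/+ and 9 labelled Nts-/-, with 0 higher. The median log2 fold change of these 19 was -0.54 labelled Nts+/+ and -0.26 labelled Nts-/-. The immunoproteasome subunit Psmb9 fell by 1.76 ± 0.19 (adjusted p = 0.000115) and by 1.05 ± 0.18 (adjusted p = 0.00178), and Psmb10 by 1.70 ± 0.20 (adjusted p = 0.000158) and by 1.44 ± 0.20 (adjusted p = 0.000361).

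**Figure D5:**
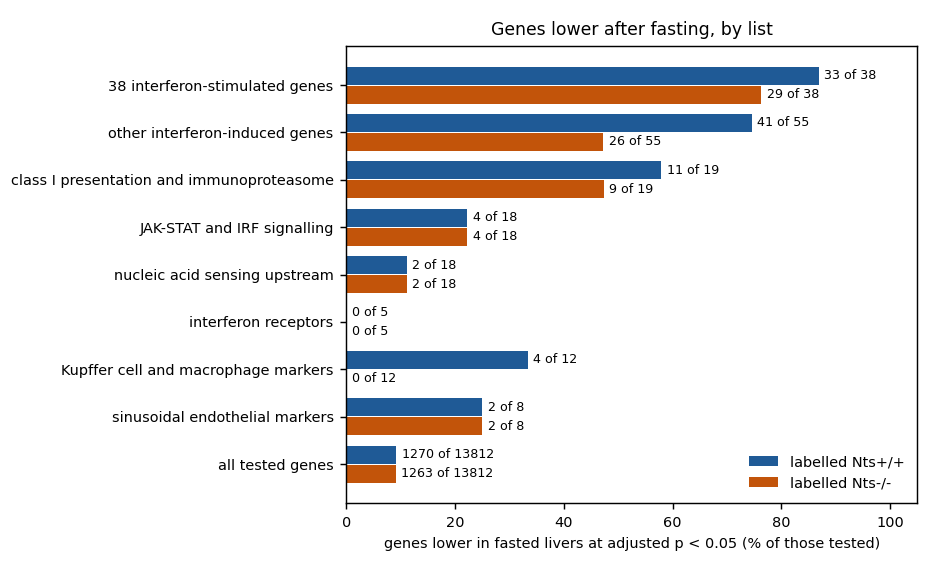
Share of tested genes lower in fasted livers at adjusted p under 0.05 (horizontal axis, % of those tested, with counts beside the bars) by gene list, labelled Nts+/+ (blue) and Nts-/- (orange). The 38 genes reach 33 and 29 calls, the interferon receptors 0 and 0, and the Kupffer cell and macrophage markers 4 and 0.

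Markers of the cell types that liver RNA could hold were set beside the members. Of 12 Kupffer cell and macrophage markers, 4 (Clec4f, C1qa, C1qb and C1qc) fell with fasting in mice labelled Nts+/+, and all 12 fold changes were below 0 with a median of -0.69. At that threshold 9.19% of all tested genes were lower labelled Nts+/+ and 9.14% labelled Nts-/-. The summed level of the 12 markers was 852 to 940.0 CPM fed and 433 to 710.0 CPM fasted. In mice labelled Nts-/-, 0 of 12 passed by edgeR, with 2 at an unadjusted p under 0.05, of which 1 was lower. In that comparison 4383 of all 13812 tested genes had an unadjusted p under 0.05. Of the 12 fold changes of the markers, 7 were below 0 and 5 above, from -0.47 to 2.95, with a median of -0.02. The marker sums overlapped at 547 to 709 CPM fed and 527 to 809 CPM fasted. In fed livers labelled Nts-/- against Nts+/+, all 12 fold changes were below 0, with a median of -0.48. In that fed comparison 0 passed by edgeR, with 6 at an unadjusted p under 0.05, against 6.34% of all tested genes. The difference of the fasting responses between labels passed for 0 of the 12 by edgeR, with 6 at an unadjusted p under 0.05. At that level stood 4.8% of all tested genes. No other immune list had more than 1 gene past the threshold: Ccr2 of 8 monocyte and neutrophil markers and Gzma of 12 T, NK and B cell markers fell labelled Nts+/+, and 0 of 6 dendritic cell markers passed under either label. Of 8 sinusoidal endothelial markers, 2 fell under each label. Their summed level was 200.5 to 283 CPM fed and 175 to 188 CPM fasted labelled Nts+/+. Labelled Nts-/-, it was 221 to 245 CPM fed and 167 to 200 CPM fasted. Stellate cell and cholangiocyte markers summed to 416 to 502 CPM fed and 378 to 410 CPM fasted labelled Nts+/+. Labelled Nts-/-, they summed to 421 to 483 CPM fed and 366.5 to 384 CPM fasted. Both sums were lower in every fasted mouse than in every fed mouse of the same label. The summed hepatocyte markers, 118900 to 140400 CPM fed and 120500 to 143300 CPM fasted labelled Nts+/+, overlapped. The part of any cell type in the fall of the members was not tested.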

How the data were processed

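Liver RNA of 12 mice was analysed as 1 table of expected counts, the estimated reads per gene that the authors deposited with GRCm38 positions for 48795 genes. The submitters' processing notes name Trimmomatic and RSEM without versions. Expected counts need not be whole (6.94% to 8.66% of values per mouse were not) and were rounded. Every count column belonged to 1 of the 12 mice.

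In R 4.3.3, edgeR 4.0.16 kept 13812 genes (filterByExpr), scaled libraries by TMM and fitted 1 mean per group over all 12 mice with robust quasi-likelihood tests. Contrasts were fasted against fed within each genotype label, Nts-/- against Nts+/+ within each feeding state, and the difference of the responses. Benjamini-Hochberg adjusted p under 0.05 counted as passing. A calculation on simulated counts for fasting labelled Nts+/+ (13633 genes) recovered 94 of 100 genes changed 4-fold, 58 of 99 changed 2-fold, and called 6 of 13434 unchanged genes. The simulated counts were drawn independently for each gene from the fitted trend of the spread. They held no shift shared by many genes of a mouse, so these rates hold for that model only. DESeq2 1.42.0, other normalizations, filters and thresholds, and leaving out each mouse were alternatives. Replicate numbers are mouse numbers that no groups share. The mice were littermates, but which mice shared a litter is not given in the sources used here, so no litter block was fitted. Mice were 3 per group, from separate animals, and floors of 3 counts cover counting error only.

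The 38 members and the pathway and marker lists were chosen with earlier results of these data known, and support for a list's direction is not independent. Values are given for all members, and of each pathway list for up to 4 genes past the threshold per contrast with the smallest p, beside Irf1, Ifnar1, Ifnar2, Ifng and Ifnb1; 1 further gene of that rule is not reported here. Promoter windows came from RefSeq (GRCm38.p6), transcript lengths from GENCODE by Ensembl identifier, and transcript identity from BLASTN 2.17.0. The authors' comparisons were not used.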

Additional observations from a re-analysis of the deposited data

How the results depend on the processing

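Over the alternatives, every tested member kept a fold change below 0 in the fasting comparison labelled Nts+/+, and in that labelled Nts-/- the exceptions were 2 members without mouse 303 and 1 without mouse 284. Members lower with fasting, 33 labelled Nts+/+ and 29 labelled Nts-/-, numbered 20 to 29 and 15 to 28 when 1 mouse was left out. Requiring a change of 1 or more on the log2 scale left 18 lower labelled Nts-/-. Counts of members under other normalizations, filters, a looser threshold or DESeq2 stayed within 1.5 times. The median difference between labels in fed livers ranged from -0.0321 (without mouse 303) to 0.29, that in fasted livers from 0.13 (without mouse 295) to 0.43, and the median difference of responses from -0.03745 (without mouse 295) to 0.396 (without mouse 303). Their causes were not tested.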

Other observations

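Markers of other liver cell types also changed with fasting. Of 8 sinusoidal endothelial markers, 2 fell and 1 rose labelled Nts+/+, and 2 fell labelled Nts-/-, where 18.1% and 16.8% of all tested genes passed in either direction. Clec4g, a lectin of sinusoidal endothelium, fell by 1.15 ± 0.18 on the log2 scale labelled Nts+/+ (SE, adjusted p = 0.00104, edgeR) and by 1.07 ± 0.18 labelled Nts-/- (adjusted p = 0.00149). Lyve1, another endothelial marker, rose by 1.17 ± 0.24 labelled Nts+/+ (adjusted p = 0.00545) and had 0.25 ± 0.24 labelled Nts-/- (adjusted p = 0.517). Of 9 stellate cell and cholangiocyte markers, 2 fell labelled Nts+/+ (Lrat and Spp1) and 3 labelled Nts-/- (Lrat, Reln and Sox9). Among 7 hepatocyte markers, Apoa1, the apolipoprotein of HDL, rose by 0.73 ± 0.21 (adjusted p = 0.0316) and by 1.00 ± 0.22 (adjusted p = 0.00694), and Ttr, the thyroxine carrier, fell by 0.63 ± 0.17 (adjusted p = 0.0226) and by 0.90 ± 0.17 (adjusted p = 0.0037).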
